A study of Elopichthys bambusa with 12 samples.

Results

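Livers of Elopichthys bambusa, the yellowcheek carp, a fish-eating cyprinid of fresh water, were compared between 28 and 8 days without food, to describe how far the state of the fasted liver at 8 days was kept at 28 days. The comparison used 6 of the 12 RNA sequencing libraries of the study, namely all 3 labelled as liver fasted for 28 days and all 3 labelled as liver fasted for 8 days, and every assembled transcript with enough counts in them. The other 6 libraries came from fish that ate a commercial diet for the same 8 or 28 days, 3 of each, and serve below as a scale. The labels give no strain, age, sex or genotype, and do not say whether a library is 1 fish or a pool, and p-values therefore cover variation among the libraries at hand, which may be technical. The 6 fasted libraries held 17872165 to 19901335 estimated counts.

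A fish liver stores glycogen and fat, makes most of the proteins of the blood plasma, and during a fast supplies glucose and other fuels to the rest of the body. In fasting vertebrates glycogen is generally drawn on first, and fat and then protein later, which is why a short and a long fast are commonly set side by side. The files name transcripts only by identifiers of an assembly made without a genome, and do not pair them with genes. No function can therefore be given for any transcript below, the liver label could not be checked against marker genes, and the results are given for classes of transcripts and for a few single transcripts (called features here). In tissue RNA, fewer cells of a type and less RNA per cell cannot be told apart.

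Of 42353 features, 28071 passed the filter on low counts in the 6 fasted libraries and were tested. None of them differed between 28 and 8 days of fasting in edgeR's quasi-likelihood test (0% called at a Benjamini-Hochberg adjusted p under 0.05), and 587 (2.09%) had an unadjusted p under 0.05, a count that became 1571 without replicate 2 of 8 days and 1226 without replicate 1 of 28 days. DESeq2 called 28 features, 10 higher and 18 lower at 28 days, of which 26 had a mean under 10 CPM (counts relative to library size, after scaling) over the 6 libraries. The limma test called 0, on voom weights and on log2(FPKM + 1) or log2(FPKM + 0.1). The 3 libraries of 28 days lay wholly above or wholly below the 3 of 8 days for 1903 features (6.78%), with 965 (3.44%) above and 938 (3.34%) below. For a feature without ties, day labels assigned at random would separate 3 from 3 libraries with a probability of 0.1. Fed fish, tested in the same way in their own 6 libraries, differed between the same days in 8947 of 25735 features (34.8%). Over the features of a fit of all 12 libraries, with its own filter and scaling, fed libraries of the days did not overlap for 15144 of 32212 (47%). The spread within days was wider in fasted than in fed fish, as given below, so these shares do not rest on equal spread.

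Few features were present on one day and missing on the other. Only 9 features had at least 10 counts in all 3 libraries of 28 days and no count in any of 8 days, among 21936 present at 28 days. The converse held for 9 of the 20858 present at 8 days. In fed fish the same definition gave 171 features present at 28 days only and 186 present at 8 days only. At the depth of these libraries, a feature with no count in a fasted library can still be at up to 3 counts, which is 0.133 to 0.189 CPM in the 6 libraries and covers counting error only.

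The fasted libraries were next compared as whole profiles. For each pair of libraries, the share of counts placed on different features was computed, that is, the share that would have to move to other features for both profiles to match. It averaged 11.3% ± 4.4 (SD) over the 9 pairs of a 28-day with an 8-day fasted library. Within the days it averaged 13.1% ± 3.28 at 8 days and 12.1% ± 2.98 at 28 days, over 3 pairs each. Libraries of different days were thus on average no further apart than libraries of the same day, and the mean between days minus the mean within days was -1.25 percentage points (exact two-sided permutation test over 20 assignments of the libraries to days, p = 0.2, smallest possible 0.1). Fasted and fed libraries were further apart, at 29.0% ± 2.4 at 8 days and 22.4% ± 2.07 at 28 days, and fed libraries of the 2 days differed by 24.3% ± 2.6 (9 pairs each).

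**Figure D1:**
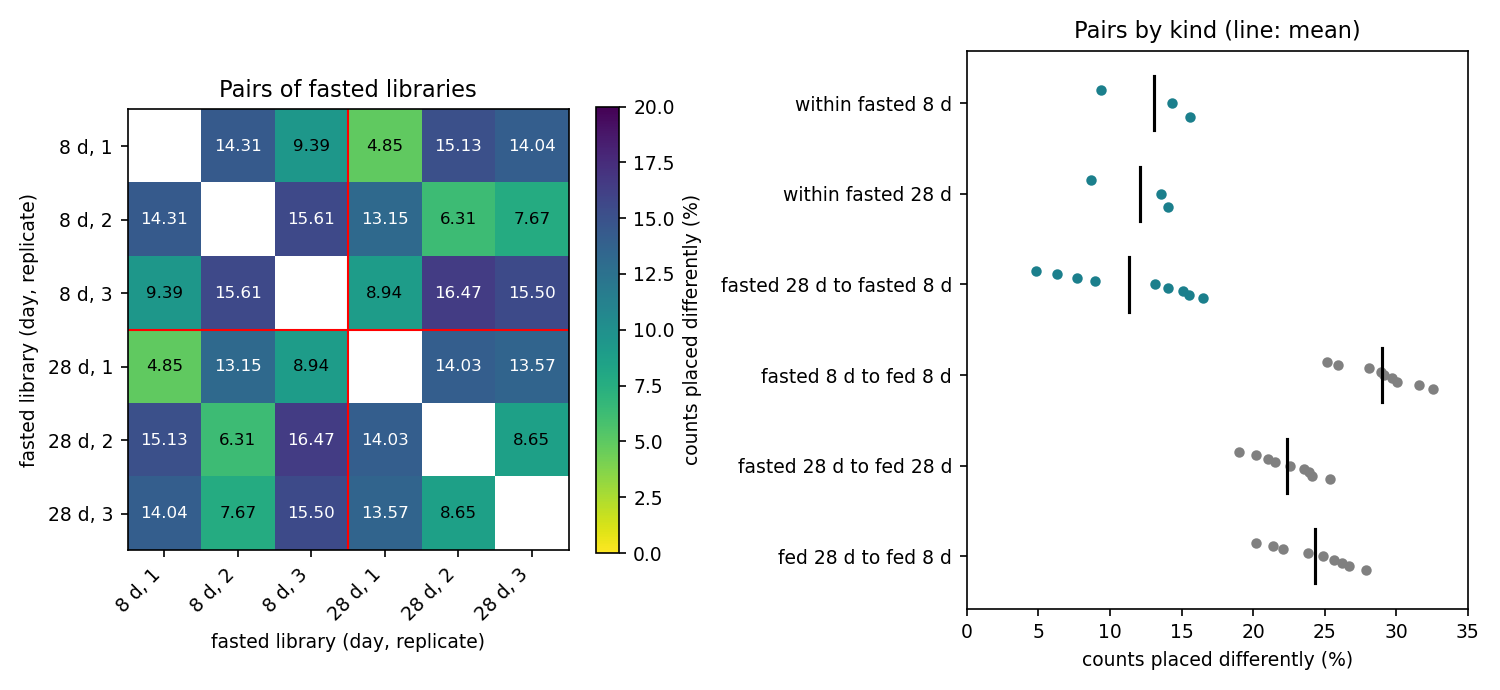
Left, percent of counts placed on different features for each of the 15 pairs of fasted libraries, with red lines between the days. Right, the same measure for all pairs of each kind, with the mean as a line; the 9 pairs across days in fasted fish, at 4.85 to 16.5%, lie below all pairs of fasted with fed libraries of a day, at 19.0% or more.

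The pairs also showed a division of the 6 libraries that no label names. The closest pair of all 15 joined the days, replicate 1 of 8 days with replicate 1 of 28 days at 4.85%. Replicate 2 of 8 days lay 6.31% and 7.67% from replicates 2 and 3 of 28 days, but 14.3% and 15.6% from replicates 1 and 3 of its own day. Replicate 3 of 8 days lay 8.94% from replicate 1 of 28 days and 16.5% and 15.5% from replicates 2 and 3 of that day. The correlation of log2 CPM across the tested features, which are not independent replicates, was 0.894 and 0.898 for replicate 2 of 8 days with replicates 2 and 3 of 28 days, and 0.829 for replicate 3 of 8 days with replicate 3 of 28 days. On average the correlation between days exceeded that within days by 0.00724 (exact permutation p = 0.4), and it turned below 0 without replicate 2 of 8 days (-0.00725) or without replicate 1 of 28 days (-0.00014).

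The division was measured as the first principal component of log2 CPM after the mean of each day had been removed, which by its construction is the largest of 4 such components and is at right angles to the day. Its scores, in SD units, were -0.425, 1.32 and -0.895 in replicates 1, 2 and 3 of 8 days and -1.22, 0.479 and 0.743 in replicates 1, 2 and 3 of 28 days. Removing the day means makes the scores of each day average out, so scores of both signs on each day follow from the construction. Computed without that removal, the component scored 0.725, -0.951 and 1.17 in replicates 1, 2 and 3 of 8 days. In replicates 1, 2 and 3 of 28 days it scored 0.797, -0.736 and -1.01. Its sign is arbitrary, and scores of both signs again occurred on each day. The component with the day means removed took 39.8% of the variation within days, against 23.5% for the next component. Over all tested features the day held 17.5% of the total variation in log2 CPM and this component 32.8%, where the day would hold 20% if variation were spread evenly over the 5 directions that 6 libraries allow. Among the 137 features with a mean of at least 1000 CPM the day held 14.9% and the component 63.4%. The day held more than the component in 18 of those 137 (13.1%), beside 10032 of all 28071 tested features (35.7%).

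A fit with the component as a covariate was made because such a division widens the spread within both days. With it, 0 of 28071 features passed (0% called), and 1630 (5.81%) had an unadjusted p under 0.05. Since the covariate was drawn from the same counts and takes nothing from the day, these p-values are too small. At right angles to the day, it also cannot remove any part of a day difference that follows an uneven division between the days. Day changes fitted with it are therefore not corrected for such unevenness. DESeq2 with the covariate called 143 features, 39 higher and 104 lower at 28 days, with 22 at or over 100 CPM. When all 12 libraries were fitted with a covariate made in the same way, 3 features passed, all lower at 28 days. They are outside the rule for naming and were picked out after their values were seen. TRINITY_DN12907_c0_g1_i2_1 (1160 nucleotides) was at 61.9, 27.2 and 69.0 CPM at 8 days and 45.8, 15 and 12.4 CPM at 28 days, a log2 change of -1.25 (edgeR adjusted p = 0.0432), with groups that overlapped. TRINITY_DN27202_c0_g1_i1_4 and TRINITY_DN7951_c0_g1_i1_1 averaged 3.86 and 8.16 CPM over the 6 libraries, and their libraries of 8 and 28 days overlapped as well.

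Bounds on the change were set from the 95% interval of each log2 change, using the spread of the 6 fasted libraries alone. That spread was wider than in fed fish. It was compared over the 5523 features with a mean of at least 10 CPM over all 12 libraries. The median SD of log2 CPM was 0.302 at 8 and 0.284 at 28 days of fasting, against 0.155 and 0.186 in fed fish. Of the 137 features over 1000 CPM, 114 (83.2%) had an interval that lay within a 2-fold change in either direction, and 134 (97.8%) within 4-fold. Of the 704 features from 100 to 1000 CPM, 494 (70.2%) were bounded within 2-fold and 665 (94.5%) within 4-fold. Between 10 and 100 CPM, 3305 of 4620 (71.5%) were bounded within 2-fold. Between 1 and 10 CPM 4045 of 16670 (24.3%) were, and under 1 CPM 0 of 5940, so that no feature of the lowest class had a bound this narrow.

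**Figure D2:**
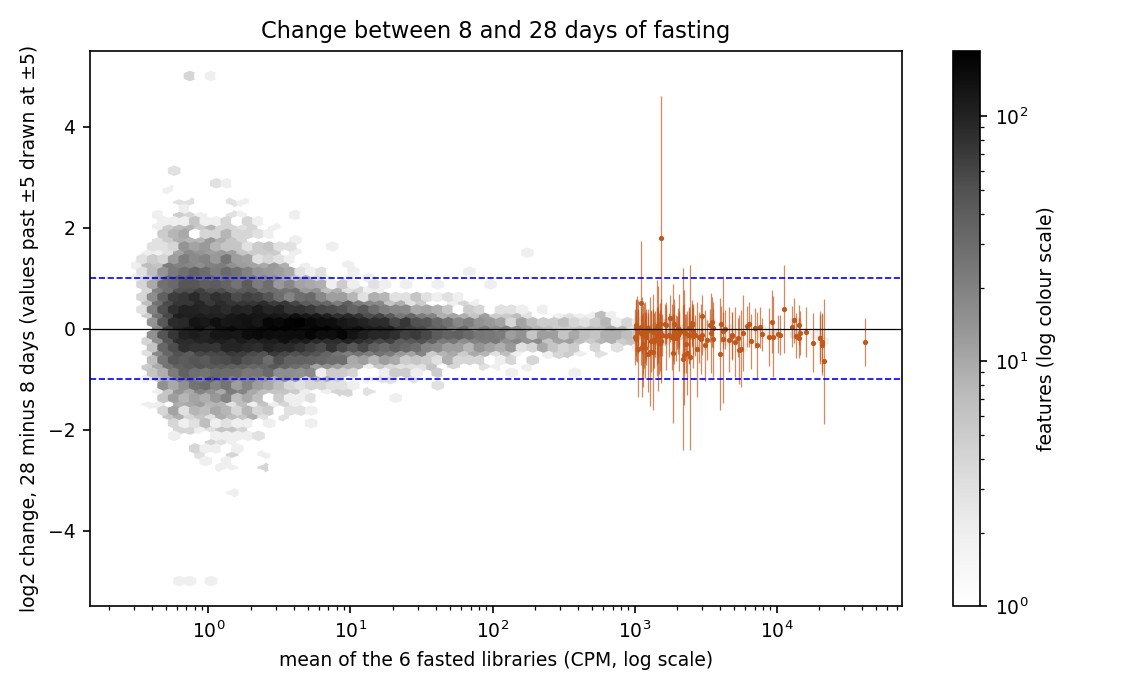
Log2 change from 8 to 28 days of fasting against mean CPM for the 28071 tested features (grey, density), with the 95% interval for the 137 features over 1000 CPM (orange). Dashed lines mark a 2-fold change; 114 of the 137 intervals lie between them.

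The bounded features held most of the estimated counts. Features bounded within 2-fold held 76.8% to 80.6% of the counts of each fasted library, and those bounded within 4-fold 95.5% to 96.6%. Features whose estimated change exceeded 2-fold held 0.713% to 2.42%, the highest share being in replicate 3 of 28 days. With the covariate, 130 of the 137 features over 1000 CPM (94.9%) and 616 of the 704 from 100 to 1000 CPM (87.5%) were bounded within 2-fold, and such features held 90.2% to 91.1% of the counts. The covariate narrows intervals by its construction, as the largest residual component of the same counts, so intervals and bounds with it, here and below, are too narrow and do not replace those without it.

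**Figure D3:**
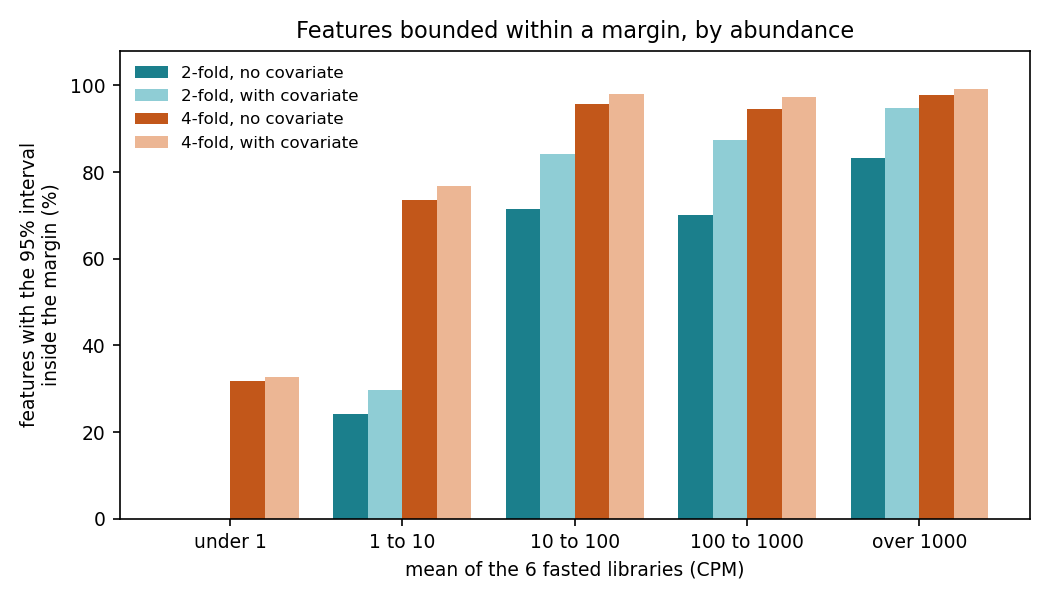
Percent of tested features whose 95% interval of the 28 against 8 day change lies within 2-fold or 4-fold, by mean CPM of the 6 fasted libraries, without and with the covariate for the unlabelled division. The bars with the covariate are too high by its construction; over 1000 CPM the bars stand at 83.2% and 94.9% for 2-fold and 97.8% and 99.3% for 4-fold.

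An equivalence test, which asks of each feature whether a change of 2-fold or more can be rejected, was stricter. With Benjamini-Hochberg adjustment over all 28071 features, 91 of the 137 features over 1000 CPM passed at an adjusted p under 0.05, and 381 of the 704 from 100 to 1000 CPM. None passed in any of the 6 fits that left out 1 fasted library, so this count rests on having all 6 libraries. The counts of bounded features, in contrast, ran from 87 to 110 of 137 and from 370 to 486 of 704 in those fits.

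The estimated changes of abundant features were small and leaned downwards. For the 137 features over 1000 CPM the median log2 change was -0.126, with 32 of the 137 higher and the others lower at 28 days, beside a median of 0.00365 for all tested features. Apart from 1 feature at 1.80, the changes of the class did not pass 1 in size, and the lowest was -0.648. With a library left out the median ran from -0.05 (without replicate 1 of 8 days) to -0.235 (without replicate 1 of 28 days), and 21 (without replicate 2 of 8 days) to 51 (without replicate 2 of 28 days) were higher. The lean also depended on the scaling. With library size alone, which moved the median of all features to 0.108, the class had a median of -0.0107, with 76 lower and 61 higher. Relative to all features the class stood lower under either scaling, and no feature in it passed the test.

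The most abundant feature over the 6 fasted libraries was TRINITY_DN14900_c2_g1_i2_1, of 4291 nucleotides. It was at 51660, 34880 and 50380 CPM at 8 days and at 40290, 32330 and 40880 CPM at 28 days. The days overlapped, replicate 2 was the lowest library of each day, and the log2 change of -0.27 ± 0.20 (SE) had a 95% interval from a 0.597-fold to a 1.15-fold level at 28 days (edgeR adjusted p = 1). In fed fish the same feature went from 14100, 15040 and 15360 CPM at 8 days to 41280, 42450 and 42550 CPM at 28 days. The change over time was lower in fasted than in fed fish by 1.77 on the log2 scale (edgeR interaction test, adjusted p = 0.000522).

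The next features in abundance varied more among the fasted libraries. TRINITY_DN14979_c4_g1_i1_1 (4353 nucleotides) was at 27570, 11730 and 39710 CPM at 8 days and at 27330, 10510 and 12580 CPM at 28 days. Replicate 2 of 8 days and replicates 2 and 3 of 28 days were low, the other 3 libraries at 27330 CPM or more, and the days overlapped. Its interval, from 0.271-fold to 1.5-fold, was not bounded within 2-fold, and with the covariate it narrowed to a log2 change between -0.96 and -0.24 (adjusted p = 0.765). The estimate was -0.60 with the covariate and -0.648 without it, and either can hold a part from an uneven division between the days.

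TRINITY_DN16845_c0_g4_i13_3 (2362 nucleotides) averaged 22890 ± 5940 CPM at 8 days and 18920 ± 3410 CPM at 28 days (SD, n = 3 each), with an interval from 0.553-fold to 1.24-fold. TRINITY_DN14481_c1_g4_i2_4 (1607 nucleotides) averaged 23170 ± 6080 and 18600 ± 3960 CPM, with an interval from 0.527-fold to 1.22-fold. Both overlapped between days, with replicate 2 lowest on each day. Per length, TRINITY_DN14481_c1_g4_i2_4 was the highest of these 4 features, at a mean of 12440 FPKM and the third rank of all features, and TRINITY_DN14979_c4_g1_i1_1 the lowest, at 4597 FPKM and rank 15.

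The narrowest intervals among the 137 abundant features belonged to TRINITY_DN16741_c1_g2_i4_3 and TRINITY_DN14460_c0_g1_i13_4, of 2129 and 2979 nucleotides. The former was at 8120, 7756 and 8695 CPM at 8 days and 7414, 7356 and 7875 CPM at 28 days. Its interval ran from 0.736-fold to 1.15-fold. The latter was at 2092, 2047 and 2032 CPM at 8 days and 2003, 1841 and 1994 CPM at 28 days, all 3 libraries of 28 days below those of 8 days by a small step, with an interval from 0.751-fold to 1.19-fold.

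The widest intervals belonged to TRINITY_DN15238_c0_g1_i2_2 and TRINITY_DN14902_c3_g3_i6_1, of 1026 and 1115 nucleotides. TRINITY_DN15238_c0_g1_i2_2 was at 572, 1424 and 57.8 CPM at 8 days and at 500, 1149 and 5512 CPM at 28 days. Its log2 change of 1.80 rested on replicate 3 of 28 days, and its interval ran from 0.498-fold to 24.4-fold. The largest log2 change allowed by the interval, 4.61, ran, with each of the 6 libraries left out in turn, from 3.02 without that library to 5.96 without replicate 2 of 8 days. TRINITY_DN14902_c3_g3_i6_1 was at 4534, 854 and 3455 CPM at 8 days and 4033, 816 and 1109 CPM at 28 days. The same 3 libraries were low as for TRINITY_DN14979_c4_g1_i1_1, and its interval ran from 0.189-fold to 2.40-fold, or from -1.365 to 0.08 on the log2 scale with the covariate. The largest log2 change allowed without the covariate, 2.40 in size, was 3.24 without replicate 1 of 28 days.

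**Figure D4:**
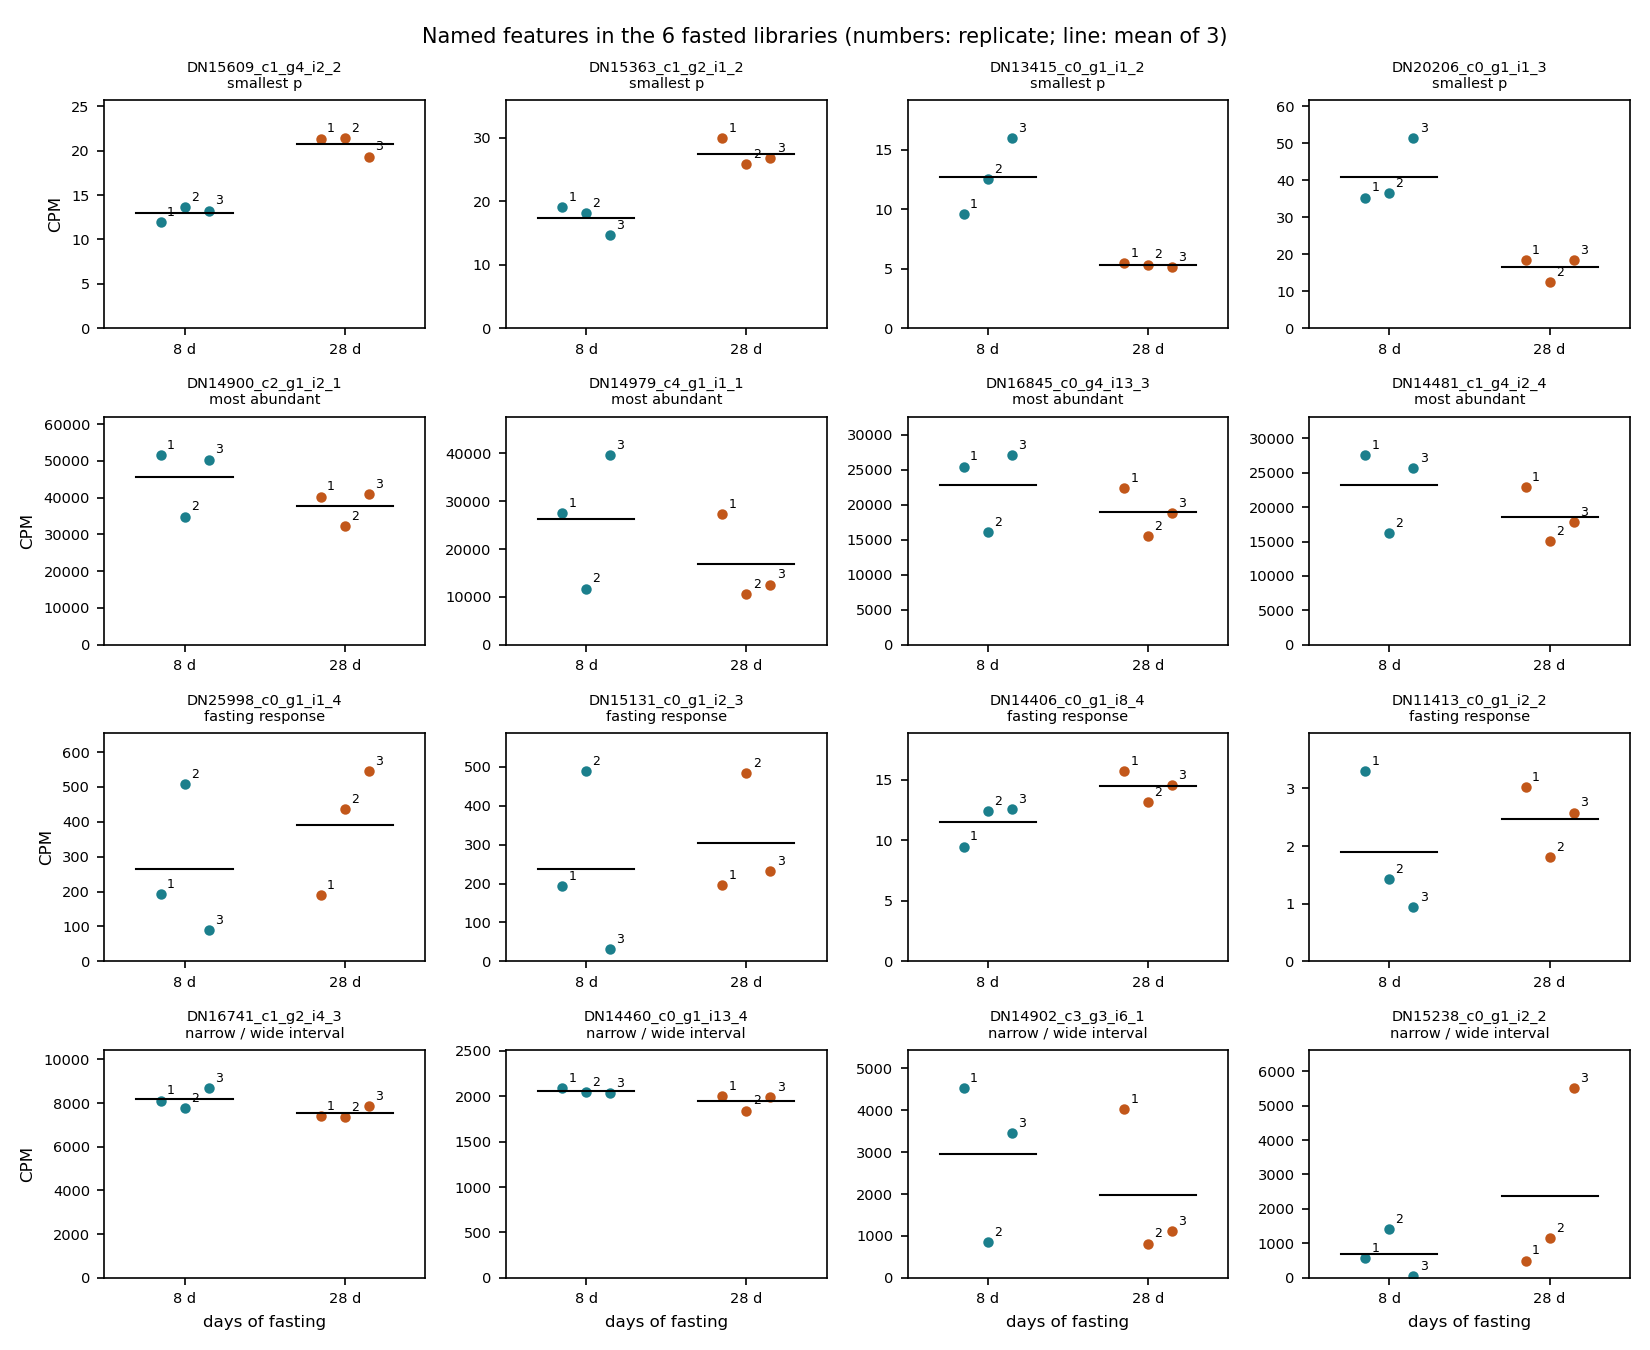
CPM of the 16 named features in each fasted library on a linear axis from 0 (numbers mark the replicate, lines the mean of 3), in rows by the rule that chose them. The libraries of the 2 days separate in the first row, which was chosen for that, while in the second row replicate 2 of 8 days lies with the low libraries of 28 days.

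Nearest to a change were features with small p-values that did not overlap between days and reached 10 CPM in the higher group. Without regard to p, 305 met these conditions, 96 higher and 209 lower at 28 days, beside 965 higher and 938 lower among all features that did not overlap. No upper limit of CPM applied to the 305, so the class of 10 to 100 mean CPM given next does not match them fully. Among all 4620 tested features of 10 to 100 CPM, 1989 were higher and 2631 lower, and 5.3% did not overlap, beside 6.78% of all features. With library size alone, 2766 of the 4620 were higher and 1854 lower, so the lean of this class turned with the scaling. The split of the 305 is given under the main scaling only. The 2 of each direction with the smallest p are named here. They are extremes of the whole table, and their separation follows from the choice. TRINITY_DN15609_c1_g4_i2_2 (1652 nucleotides) was at 11.99, 13.6 and 13.2 CPM at 8 days and at 21.4, 21.4 and 19.3 CPM at 28 days, a log2 change of 0.68 ± 0.16 (SE, edgeR adjusted p = 1). TRINITY_DN15363_c1_g2_i1_2 (787 nucleotides) was at 19.1, 18.2 and 14.6 and at 29.9, 25.9 and 26.8 CPM, a log2 change of 0.67 ± 0.18 (edgeR adjusted p = 1). Neither passed under any alternative, with adjusted p-values from 0.228 and from 0.609 upwards.

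On the lower side, TRINITY_DN20206_c0_g1_i1_3 (365 nucleotides) was at 35.3, 36.5 and 51.4 CPM at 8 days and at 18.4, 12.5 and 18.5 CPM at 28 days. TRINITY_DN13415_c0_g1_i1_2 (488 nucleotides) was at 9.59, 12.6 and 16.0 CPM and at 5.44, 5.35 and 5.16 CPM. Their log2 changes of -1.32 ± 0.25 and -1.25 ± 0.23 had edgeR adjusted p-values of 1, and DESeq2 called both (adjusted p = 0.00901 and 0.0335, over all alternatives up to 1). In fed fish TRINITY_DN20206_c0_g1_i1_3 was at 17.3 to 19.8 CPM at 8 days and 12.7 to 18.2 CPM at 28 days, and TRINITY_DN13415_c0_g1_i1_2 at 3.92 to 7.40 and 3.57 to 8.92 CPM. Fasted livers thus lay above all fed ones at 8 days and overlapped them at 28 days for both features.

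Features that fasting had shifted far from the fed level were then followed from 8 to 28 days. They were chosen for passing the test of fasted against fed fish on both days, so their distance from the fed level is given as a description, and both comparisons share fasted libraries with that of 28 against 8 days. Of 185 features that passed in the same direction on both days and reached 100 CPM, the fallen pair with the largest changes was TRINITY_DN14406_c0_g1_i8_4 (4359 nucleotides) and TRINITY_DN11413_c0_g1_i2_2 (1554 nucleotides). TRINITY_DN14406_c0_g1_i8_4 was at 6984 to 8221 CPM in the 6 fed libraries, and at 9.47, 12.4 and 12.5 CPM after 8 days and 15.7, 13.2 and 14.6 CPM after 28 days of fasting. The fasted libraries of the days did not overlap, and the interval of the change, from 0.918-fold to 1.73-fold, lay within 2-fold. TRINITY_DN11413_c0_g1_i2_2 was at 102 to 133 CPM in fed libraries and at 3.30, 1.43 and 0.946 CPM and 3.02, 1.81 and 2.58 CPM in fasted ones, with overlap and an interval from 0.537-fold to 3.17-fold.

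The risen pair, TRINITY_DN25998_c0_g1_i1_4 (520 nucleotides) and TRINITY_DN15131_c0_g1_i2_3 (2656 nucleotides), stood at 0 to 3.2 CPM in fed libraries and varied widely among fasted ones. TRINITY_DN25998_c0_g1_i1_4 was at 192, 509 and 90.2 CPM at 8 days and 190, 437 and 545 CPM at 28 days, high in the libraries with a high score on the unlabelled component. Its interval ran from 0.501-fold to 4.38-fold, the largest log2 change allowed being 2.13 and, without replicate 2 of 8 days, 2.745. With the covariate the log2 change was 0.76, between 0.25 and 1.27 (adjusted p = 0.788). This change, too, can hold a part from an uneven division between the days, which the covariate does not remove. TRINITY_DN15131_c0_g1_i2_3 was at 194, 489 and 31.6 CPM and at 196, 485 and 232 CPM, with an interval from 0.312-fold to 5.25-fold. The largest log2 change allowed, 2.39, was 1.495 without replicate 3 and 3.32 without replicate 2 of 8 days, and 3.03 and 3.01 without replicates 1 and 3 of 28 days. For both, replicate 1 of 8 days and replicate 1 of 28 days had nearly the same level.

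The fasting response as a whole, which called 25.3% of 32212 features at 8 days and 9.92% at 28 days in edgeR's test of fasted against fed fish, was followed through the counts that its features held. Features higher in fasted than in fed fish at 8 days (4278, 13.3%) held 16.5% ± 0.83 of the counts in fed 8-day fish and 38.8% ± 2.31 in fasted 8-day fish. They held 29.5% ± 1.33 in fed 28-day fish and 40.2% ± 2.2 in fasted 28-day fish (SD, n = 3 each). Features lower in fasted fish at 8 days (3885, 12.1%) held 25.6% ± 2.79 in fed and 6.15% ± 0.33 in fasted 8-day fish, and 14.8% ± 2.23 in fed and 6.56% ± 0.80 in fasted 28-day fish. The fasted libraries of the days thus overlapped for both lists, while the fed libraries of 28 days lay nearer to the fasted ones than those of 8 days. Both lists were chosen on the distance between fasted and fed fish at 8 days, which favours this order of the fed libraries. The lists chosen at 28 days, given next, had the reverse order, with fed 8-day fish nearer to the fasted ones. The lists came from the fit of all 12 libraries, so that every group had a part in its filter, scaling and spread.

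Fasted libraries of the days also overlapped for the lists of 28 days. Features higher in fasted than in fed fish at 28 days (1333, 4.14%) held 10.3% ± 1.19 of the counts in fasted 28-day and 9.21% ± 2.17 in fasted 8-day fish, beside 3.52% ± 0.08 in fed 28-day and 4.13% ± 0.06 in fed 8-day fish. Those lower at 28 days (1864, 5.79%) held 14.4% ± 0.34 in fasted 28-day and 14.9% ± 0.59 in fasted 8-day fish, beside 27.7% ± 1.48 and 23.5% ± 0.27 in fed fish of 28 and 8 days. Between the days in fasted fish, the higher list of 28 days had a median log2 change of 0.129, with 67.7% higher and 8.52% not overlapping. The lower list had -0.192, 22% and 9.37%, beside 50.3% higher and 6.78% not overlapping for all features. Both lists were chosen with the fasted 28-day libraries, which favours these directions and the distance from fed 28-day fish. No feature of the lists of either day passed the test of 28 against 8 days. Of the listed features with at least 10 CPM, 77.2% of the 1862 higher and 73.8% of the 1062 lower at 8 days were bounded within 2-fold, beside 71.7% of all 5461 tested features of that abundance. Passing the test of fasted against fed fish can favour features with little spread among the fasted libraries, and little spread also narrows these intervals. The shares are therefore given as a description.

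**Figure D5:**
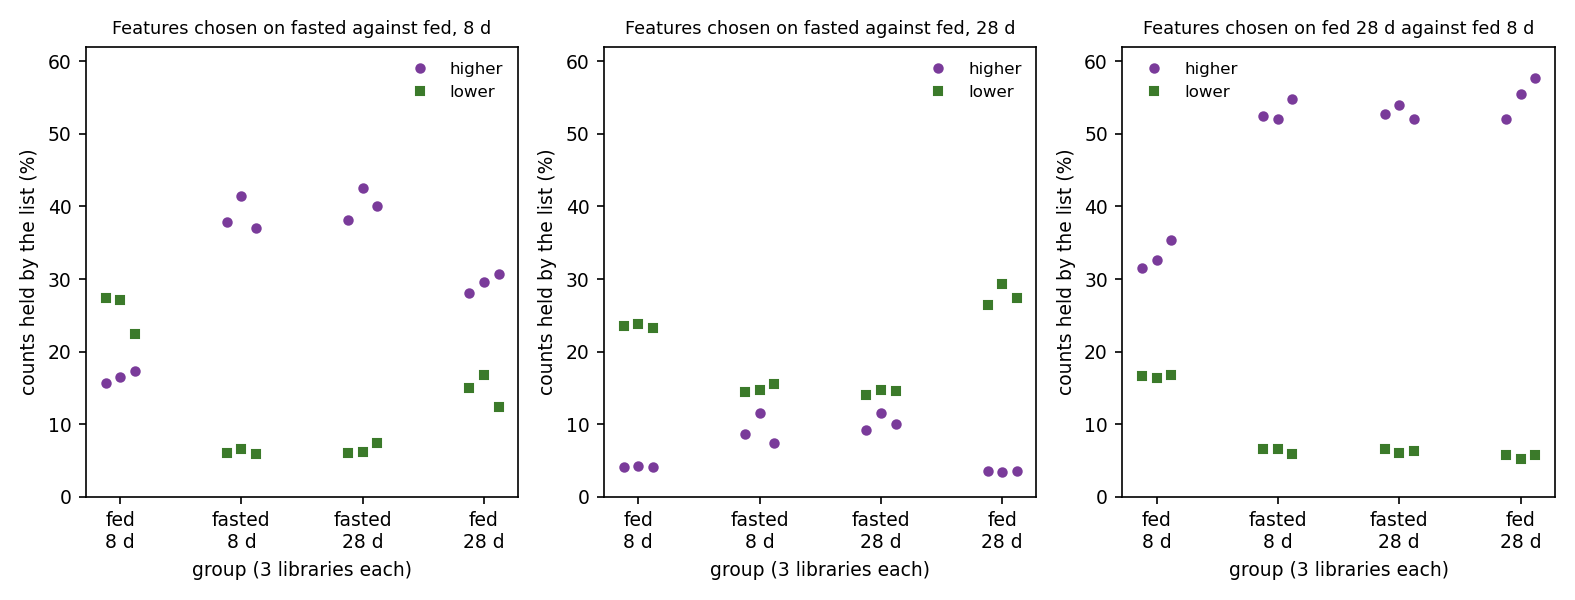
Percent of each library's counts held by the features that passed the test of fasted against fed fish at 8 days (left), at 28 days (middle), and of fed 28-day against fed 8-day fish (right), higher and lower features apart. The 3 libraries of each fasted group lie at overlapping levels in all 3 panels.

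A comparison free of shared libraries was given by the features that differed between the days in fed fish, chosen in the fed libraries alone. The 4573 features higher in fed fish at 28 than at 8 days (17.8%) had a median log2 change of 1.80 there. In fasted fish, where 4357 of them were tested, the median was -0.02 between the same days, with 48.0% higher, 0 called and 5.44% not overlapping, beside a median of 0.00365, 50.3% higher and 6.78% not overlapping for all features. The 4374 features lower in fed fish at 28 days (17%) had a median of -1.57 there, and the 3951 tested in fasted fish one of -0.08, with 39.4% higher and 0 called. Counts held by the higher list were 53.1% ± 1.48 and 52.9% ± 1.01 in fasted fish of 8 and 28 days, between 33.2% ± 2.02 in fed 8-day and 55.0% ± 2.82 in fed 28-day fish. The lower list held 6.37% ± 0.37 and 6.33% ± 0.26 in fasted, 16.6% ± 0.18 in fed 8-day and 5.55% ± 0.33 in fed 28-day fish.

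The difference between fasted and fed fish in their change over time was itself tested in all 12 libraries. It passed in 4630 of 32212 features (14.4%), although no feature passed for fasted fish alone, and it is this test that bears on a difference between fasted and fed fish. Of the 137 features most abundant in fasted livers, 42 passed, and in all 42 the change was lower in fasted than in fed fish. With library size alone 26 were lower and 2 higher, and DESeq2 gave 52 lower and 1 higher. With a library left out 29 to 52 were lower, and 1 was higher without replicate 1 of fed 28-day fish. Of the same 137 features, 56 were higher and 2 lower at 28 than at 8 days in fed fish (58 of 137, beside 27.1% of all features in the 12-library fit). The class was chosen by abundance in fasted livers, which leaves out features abundant only in fed fish. That choice can itself favour both of these directions, so they are given as a description.

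The makeup of the fasted libraries was also set side by side. At least 1 count was found for 38020 ± 1010 features at 8 days and 38754 ± 900 at 28 days (SD, n = 3 each, exact two-sided permutation p = 0.4). At the depth of the smallest fasted library the means were 37946 and 38696 (p = 0.4, exact permutation test). The 100 most abundant features of a library took 56.7% ± 2.13 of its counts at 8 days and 55.6% ± 1.05 at 28 days (exact permutation p = 0.5). Within each day the libraries with a high score on the unlabelled component had the most features and the lowest share in the top 100. Replicate 2 of 8 days had 39165 features and 54.3%, against 37272 to 37622 and 57.9% to 58.0% in the other libraries of that day. At 28 days replicates 2 and 3 had 39758 and 38487 features and 54.5% and 55.6%, against 38018 and 56.6% in replicate 1. Whether depth, RNA quality or cell makeup has a part in the division was not tested.

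Length and the last number of the identifier, which runs from 1 to 4, went with small differences in the median change. Median log2 changes were between -0.02 and 0.03 in 5 classes of length, with quartiles at -0.51 and 0.59 in the shortest class (4241 features) and at -0.14 and 0.19 in the longest (4568 features, up to 11930 nucleotides). By last number the medians were -0.08, 0.05, 0.04 and -0.06. Among features of at least 10 CPM, 34.1% of the 126 shortest and 78.9% of the 2311 longest were bounded within 2-fold.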

How the data were processed

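Liver RNA of 12 samples was sequenced by the study. Trimmomatic and Bowtie2 are named, without a role, per the submitters' processing notes. Which assembler and abundance program were run is a point not given in the sources used here. Estimated counts, which are not whole, were deposited by the authors beside FPKM values (fragments per kilobase relative to library size) for 42353 features. Values of near-identical features may be uncertain. Each column was assigned by its group code, explained in the series' design text, and its replicate number. Lengths came from counts divided by FPKM, and 100% were whole within 0.02 nucleotides.

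The deposited estimated counts were rounded for the count tests, where whole counts had been assumed. edgeR 4.0.16 (R 4.3.3) was used with filterByExpr (99.5% to 99.7% of counts kept), TMM scaling (factors 0.886 to 1.14), robust quasi-likelihood estimates and Benjamini-Hochberg adjustment at 0.05. The 6 fasted libraries were fitted alone, so that intervals on the change rest on their own spread. All 12 were fitted as 4 group means for the comparisons with fed fish. CPM values are scaled by the TMM factors of the fit; fed values come from the 12-library fit. Standard errors and 95% intervals are Wald values on moderated degrees of freedom (median 6.91 without and 5.89 with the covariate). Abundance classes use the mean CPM of the 6 fasted libraries. Principal components used log2 CPM with a prior count of 2. Permutation tests were exact and two-sided.

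Named features are the 2 higher and the 2 lower at 28 days with the smallest p among non-overlapping features of at least 10 CPM. Next are the 4 most abundant, and the 2 risen and 2 fallen with the largest fasting response on both days from 100 CPM. Over 1000 CPM, those with the 2 narrowest and 2 widest intervals were added. No 2 libraries of a day agreed within sampling noise (chi-square of 25.5 to 65.2 per feature with at least 20 counts). The tests were checked on simulated data. Members and lists were chosen with earlier results of these data known. Alternatives used DESeq2 1.42.0, limma 3.58.1, svaseq of sva 3.50.0, other scalings and filters, the replicate number as a block, and each library left out. The comparison of pairs by share of counts was added after seeing the data.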

Additional observations from a re-analysis of the deposited data

Results flagged for a closer look

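The change from 8 to 28 days differed between fasted and fed fish by the interaction test in 4630 features, which flagged it for a closer look, and the same test passed for 5 named features. These were TRINITY_DN14900_c2_g1_i2_1, with a difference of fasted minus fed change of -1.77 on the log2 scale, TRINITY_DN15609_c1_g4_i2_2 at -2.15 and TRINITY_DN15363_c1_g2_i1_2 at -2.63 (edgeR adjusted p = 0.000522, 0.00118 and 0.0184). All 3 passed in every alternative tried (adjusted p up to 0.00336, 0.0071 and 0.0456). TRINITY_DN20206_c0_g1_i1_3 at -1.13 and TRINITY_DN16741_c1_g2_i4_3 at -0.53 passed narrowly (edgeR adjusted p = 0.0328 and 0.0453) and missed the threshold in 9 and 14 of 20 alternatives (adjusted p up to 0.101 and 0.563). TRINITY_DN15609_c1_g4_i2_2, TRINITY_DN15363_c1_g2_i1_2 and TRINITY_DN20206_c0_g1_i1_3 were named for their separation in fasted fish, so their values are extremes on that side. TRINITY_DN15609_c1_g4_i2_2 and TRINITY_DN15363_c1_g2_i1_2 were chosen as higher at 28 days in fasted fish, which works against their negative differences. Their log2 changes were 0.68 and 0.67 in fasted and 2.83 and 3.31 in fed fish. TRINITY_DN20206_c0_g1_i1_3 was chosen as lower at 28 days, which favours its negative difference.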

How the results depend on the processing

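With the 6 fasted libraries fitted, edgeR called 0 features of 28 against 8 days under every alternative scaling, filter, limma fit and library left out (0 to 0), and DESeq2 called 28. At an unadjusted p under 0.05, the count of 587 became 1571 without replicate 2 of 8 days and 1226 without replicate 1 of 28 days. With a covariate it called 0 under the other alternatives, including a surrogate variable from svaseq (751 features at an unadjusted p under 0.05) and a component computed without removing the day means (756), both of which differ between the days on average. The exceptions were 143 features by DESeq2 and 3 with all 12 libraries. Leaving out each library gave 0 to 0 calls with the covariate.

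Features over 1000 CPM bounded within 2-fold numbered 83 to 125 over the alternatives, 87 to 110 with a library left out, and 106 to 132 of 137 with the covariate and a library left out. From 100 to 1000 CPM, a 99% interval bounded 323 in place of 494, and leaving out each library 370 to 486. The difference of correlations between and within days was -0.00725 to 0.0155 with a library left out, turning below 0 without replicate 2 of 8 days (-0.00725) and without replicate 1 of 28 days (-0.00014). The difference in features detected was 233 to 1307 and that in the share of the top 100 features -2.36 to -0.479 percentage points. Features that passed fasted against fed in the same direction on both days numbered 1370, with 2139 by DESeq2 and 831 to 1459 with a library left out (831 and 875 without fasted 28-day replicates 2 and 3, 883 and 880 without fed 28-day replicates 2 and 3). The interaction count was 3258 to 6730.

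The labels do not say whether the replicate numbers pair the fasted libraries. Deviations of same-numbered libraries from their day means correlated at 0.161, 0.165 and -0.172, beside -0.377 to 0.264 for libraries of different number. These values do not settle whether the numbers pair them. With the replicate number as a block, 0 features were called without and 0 with the covariate, and 123 of 137 and 567 of 704 features were bounded. Depth sets the floor of 3 counts per library, and its part in the wide intervals under 10 CPM was not tested, nor was the cause of the other differences.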
